A study of Mus musculus with 4 samples.

Results

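A set of 10 genes of fat cells was followed through hepatocyte reprogramming with and without the labelled deletion of Prox1, a homeobox transcription factor used in liver and other tissues. They are Pparg, Fabp4, Fabp5, Lpl, Cd36, Plin2, Plin1, Cidec, Adipoq and Cdo1, chosen by name, and they are 10 of the 55397 genes listed. All libraries came from primary mouse embryonic fibroblasts (MEFs) taken at E13.5 (days of gestation) from embryos of the C57BL/6J strain with the genotype Prox1 fl/fl, which means conditional Prox1 alleles on both copies of the chromosome. All of these cells were transduced on collagen-coated plates, in the presence of polybrene, with a lentivirus encoding 4 liver transcription factors in a single vector (4in1). A lentivirus for rtTA, the activator used with doxycycline, was given with it, and doxycycline in the medium induced the transgenes. The cells were moved stepwise from MEF medium to hepatocyte culture medium with fetal serum, and collected at day 14. The groups differed in a further lentivirus, which carried GFP with Cre recombinase (labelled Prox1 KO, 2 libraries) or GFP with a delta Cre that does not recombine (control, 2 libraries). Per the methods, a MEF line pools cells of the outer limbs of 3 to 4 embryos. MEFs are a mixed population of connective tissue cells, and the fate of the cells that did not convert was not separated in these bulk libraries. No library of MEFs without the 4in1 vector is analysed here, so every value describes cells 14 days into reprogramming.

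A fat cell stores fatty acids as triglyceride in a lipid droplet. PPARG, a nuclear receptor that pairs with RXR, is the regulator without which fat cells do not form, and it switches on many of the other genes named above. LPL frees fatty acids from circulating lipoproteins, CD36 carries them across the plasma membrane, and the small binding proteins FABP4 and FABP5 carry them inside the cell. Perilipins coat the droplet, with PLIN1 typical of mature fat cells and PLIN2 found on droplets of most cell types, while CIDEC fuses droplets into a larger one. Adiponectin, the product of Adipoq, is a hormone made by mature fat cells, and CDO1 oxidizes cysteine on the way to taurine. Several of these genes are also used outside fat: macrophages make Fabp4, Fabp5, Cd36, Lpl and Plin2, and hepatocytes make Cdo1 and Plin2.

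The libraries held 42469031 to 48524008 recovered reads on genes. Of the 55397 genes, 15809 reached a mean of 10 normalized counts, that is, reads divided by the size factor of the library, and were tested on log2(normalized count + 1) with limma, with the replicate number as a block and Benjamini-Hochberg adjustment over all of them. Among these, 1798 (11.4%) passed an adjusted p of 0.05, 804 (5.09%) with higher and 994 (6.29%) with lower levels in libraries labelled Prox1 KO. The count of Prox1 itself was not lower in those libraries. Prox1 had 70 and 63 reads in libraries labelled Prox1 KO against 66 and 24 in the controls, a log2 fold change of 0.75 (standard error, SE, 0.27, adjusted p = 0.0936 in limma), in a count of the whole gene that keeps the reads of undeleted exons. The directions given here therefore rest on the labels. With 2 libraries a group, an exact two-sided permutation test of a single gene that ignores the replicate pairs cannot go below p = 0.333. Keeping the pairs leaves fewer arrangements and a higher limit. The labels do not say that the 2 libraries of a group came from separate cultures, so the p-values measure the spread between these libraries only.

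Of the 10 adipocyte genes, 7 passed the filter on low values and 3 (Plin1, Cidec and Adipoq) did not. Of the 7 tested, 1, Cdo1, was called and was higher in libraries labelled Prox1 KO, and 0 were called lower, beside 11.4% of all genes tested. The other 6 were not called. Pparg, Fabp5 and Cd36 had lower values in both replicate pairs, Fabp4, Plin2 and Cdo1 had higher values in both, and Lpl was lower in pair 1 and higher in pair 2. A shared direction in both pairs was seen in 65.8% of all genes tested. The median log2 fold change of the 7 genes was 0.02, against −0.0022 for all genes tested, and the median of its absolute size was 0.15 against 0.10. Because these are bulk libraries, fewer cells of a type and less RNA per cell cannot be told apart in any of these values.

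**Figure D1:**
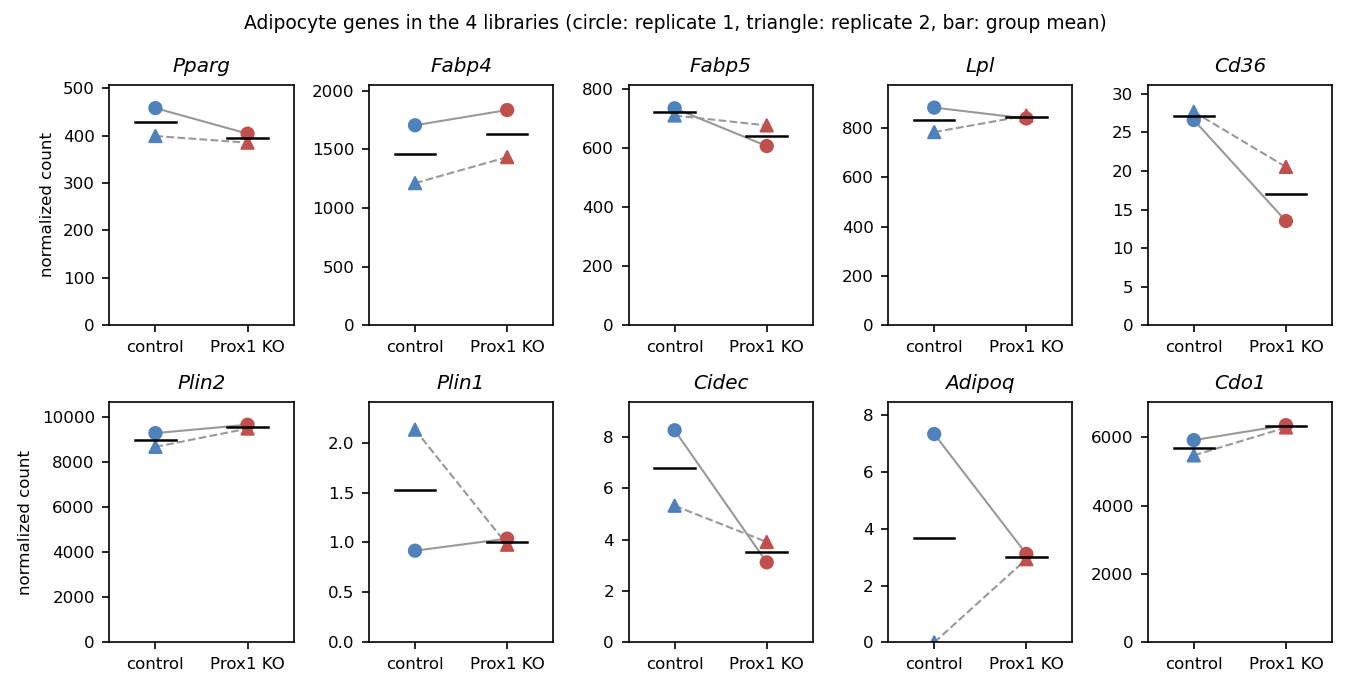
Normalized counts (y axes, linear and starting at 0) of the 10 adipocyte genes in each of the 4 libraries, with controls in blue, libraries labelled Prox1 KO in red, circles and full lines for replicate 1, triangles and dashed lines for replicate 2, and black bars at group means. Plin2 and Cdo1 lie highest, Plin1, Cidec and Adipoq lie under 10 in every library, and for Fabp4 the replicates stand further apart than the groups.

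Levels were first compared among the 10 genes per kilobase of the principal transcript, since longer transcripts collect more reads. The mean over the 4 libraries, in normalized counts per kilobase, was 4911 for Plin2, 3767 for Cdo1, 1727 for Fabp4, 690 for Fabp5, 233 for Pparg and 204 for Lpl. It then dropped to 6.50 for Cd36, 3.00 for Cidec, 2.59 for Adipoq and 0.449 for Plin1. The lowest library for Plin2 (4593) lay above the highest for Cdo1 (3985), and the same held from Cdo1 down to Cd36, although Pparg (218 to 259) and Lpl (191 to 215) were close neighbors. Cd36 (3.98 to 8.14), Cidec (1.81 to 4.80), Adipoq (0 to 5.68) and Plin1 (0.326 to 0.756, from 1 to 2 reads a library) overlapped with a neighbor in this order across libraries, so their order is not set beyond this spread. Plin2, the droplet coat gene shared by most cell types, was the most abundant of the 10 in every library.

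Adipoq, Plin1 and Cidec, genes of mature fat cells, were at or near the floor of the measurement in both groups. Adipoq (ENSMUSG00000022878; GRCm38 chromosome 16, 23146536 to 23158028, plus strand) had 3 and 3 reads in libraries labelled Prox1 KO and 8 and 0 in the controls. The 0 allows a level of up to 3 reads, which is 3.19 normalized counts in that library. Plin1 (ENSMUSG00000030546; chromosome 7, 79720218 to 79732903, minus strand) had 1 and 1 reads against 1 and 2. Cidec (ENSMUSG00000030278; chromosome 6, 113424634 to 113435760, minus strand) had 3 and 4 reads in libraries labelled Prox1 KO and 9 and 5 in the controls, so its groups did not overlap. Summed over the group, Cidec had 7 reads against 14, a ratio of rates of 0.511 with a 95% counting interval of 0.175 to 1.35, and Adipoq had 6 against 8, a ratio of 0.767 (0.219 to 2.52). Both intervals include 1 and cover counting error only, so a difference in these 2 genes was not detectable at this depth.

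Several other hallmark genes of fat cells were as rare, but not all of them. Lep, which encodes the satiety hormone leptin, had 0 or 1 read in every library, Retn, which encodes resistin, had 0 to 2, and Cfd, which encodes adipsin, had 0 to 3. Ucp1, the heat-producing uncoupler of brown fat, had 0 or 1, and Cidea, the relative of Cidec in brown fat, had 0 to 2. Of 11 marker genes of fat cells set for the check of the label (Adipoq, Plin1, Lep, Retn, Cfd, Fabp4, Pparg, Cidec, Plin4, Lipe and Slc2a4), 6 were under a mean of 10 normalized counts. The other 5 were tested and 0 were called, beside 11.4% of all genes tested, a share too small for 5 genes to show a difference from it. The 5 tested had means over the 4 libraries of 4358 (Plin4), 1547 (Fabp4), 652 (Lipe), 412 (Pparg) and 43.0 (Slc2a4) normalized counts.

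Pparg (ENSMUSG00000000440; chromosome 6, 115360951 to 115490399, plus strand) had 404 and 385 normalized counts in libraries labelled Prox1 KO and 458 and 399 in the controls. The control of replicate 1 was the highest, and the groups overlapped, with control replicate 2 lying between the libraries labelled Prox1 KO. The log2 fold change was −0.12 (95% interval −0.32 to 0.09, adjusted p = 0.511 in limma), with −0.18 in pair 1 and −0.05 in pair 2. The interval thus reaches from a difference of −19.9% to one of 6.26%, and Pparg passed the threshold in 0 of 14 settings of the test.

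Of 5 factors known to act with or ahead of PPARG, 1, Cebpd, was called, beside 11.4% of all genes tested. Cebpa, the factor that keeps fat cells differentiated together with PPARG, had 548 and 464 normalized counts against 541 and 460, a log2 fold change of 0.02 (adjusted p = 0.938 in limma). Rxra, the partner of PPARG on DNA, showed a log2 fold change of 0.02 (adjusted p = 0.802 in limma). Cebpb, an early factor of fat cell formation, had 1915 and 1851 normalized counts against 1765 and 1599, and its log2 fold change of 0.16 did not pass (adjusted p = 0.0635 in limma). Cebpd, the other early factor, fell from 4178 and 3805 to 3422 and 3460, a log2 fold change of −0.21 (SE 0.048, adjusted p = 0.0091 in limma). Ebf2, known as a partner of PPARG in brown fat, showed a log2 fold change of −0.19 (adjusted p = 0.255 in limma), and Prrx1, a factor of stromal fibroblasts, one of 0.04 (adjusted p = 0.627 in limma).

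Fabp4 (ENSMUSG00000062515; chromosome 3, 10204088 to 10208576, minus strand) had 1836 and 1434 normalized counts in libraries labelled Prox1 KO and 1706 and 1212 in the controls. Both libraries of replicate 1 were above both of replicate 2, so the groups overlapped, while within each pair the library labelled Prox1 KO was higher. The log2 fold change was 0.17 (SE 0.058, adjusted p = 0.0669 in limma), with 0.11 in pair 1 and 0.24 in pair 2, and it did not pass the threshold. Replicates 1 and 2 differed by 0.42 (SE 0.058, adjusted p = 0.000188 for the replicate term in limma). Fabp4 was the only 1 of the 7 tested genes called in that term, which called 7.88% of all genes tested. What the replicate number stands for is not given in the labels. Fits that left out 1 library and the replicate block together let this replicate difference enter the group difference, which was then −0.0041 without the library labelled Prox1 KO of replicate 1 and −0.07 without the control of replicate 2.

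**Figure D2:**
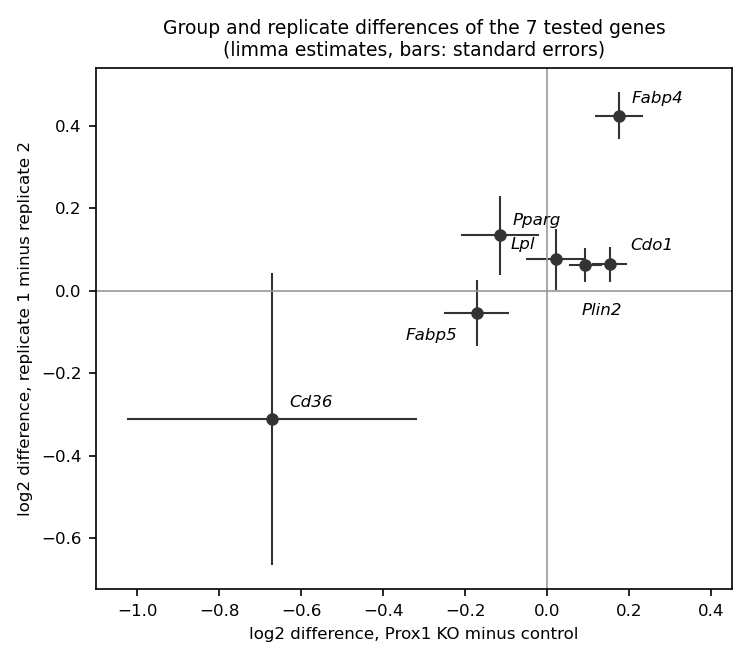
For each of the 7 tested adipocyte genes, the log2 difference between the libraries labelled Prox1 KO and the controls (x axis) against the log2 difference between replicates 1 and 2 (y axis), with standard errors (SE) from limma as bars. Fabp4 sits highest, at 0.42 on the replicate axis and 0.17 on the group axis, and Cd36 has the widest bars.

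Fabp5 (ENSMUSG00000027533; chromosome 3, 10012548 to 10016607, plus strand), which lies on the same chromosome as Fabp4, had 606 and 675 normalized counts in libraries labelled Prox1 KO and 733 and 709 in the controls. Both controls were higher than both libraries labelled Prox1 KO. The log2 fold change was −0.17 (95% interval −0.34 to −0.0028), −0.28 in pair 1 and −0.07 in pair 2, and it did not pass (adjusted p = 0.202 in limma). Groups that do not overlap were seen in 44.4% of all genes tested, and in 4 of the 7 adipocyte genes tested (Fabp5, Cd36, Plin2 and Cdo1). Another gene, Gm6166, holds 0.382% of the 100-base windows of the longest Fabp5 transcript, so few reads could be shared.

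Other binding proteins of the family were measured too. Fabp3, the heart and muscle form, had 363 and 352 normalized counts against 380 and 341, a log2 fold change of −0.01 (adjusted p = 0.968 in limma). Fabp1, the liver form, had 0 reads in all 4 libraries, which allows up to 3 reads, or 2.75 to 3.19 normalized counts in a library. Fabp7, the brain form, had 2 to 8 reads and was not tested.

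Lpl (ENSMUSG00000015568; chromosome 8, 68880491 to 68907448, plus strand) had 840 and 851 normalized counts in libraries labelled Prox1 KO, both between the controls at 884 and 785. Its log2 fold change was 0.02 (95% interval −0.13 to 0.18, adjusted p = 0.897 in limma), and the pairs differed in sign, with −0.07 in pair 1 and 0.12 in pair 2. For Lpl the interval runs from −8.86% to 13.1%. Windows shared with 4 other genes make up 1.12% of its transcript.

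Cd36 (ENSMUSG00000002944; chromosome 5, 17781690 to 17888801, minus strand) had 13 and 21 reads in libraries labelled Prox1 KO and 29 and 26 in the controls. Both controls were above both libraries labelled Prox1 KO. The log2 fold change of −0.67 was the most negative of the 7 genes, with −0.93 in pair 1 and −0.41 in pair 2, but its SE of 0.35 was also the widest, and it did not pass (adjusted p = 0.270 in limma). Its 95% interval, −1.42 to 0.08, spans −62.7% to 5.82%. At this level, under 30 reads a library, a change of that size was not separated from no change.

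Plin2 (ENSMUSG00000028494; chromosome 4, 86648386 to 86670060, minus strand) had 9653 and 9482 normalized counts in libraries labelled Prox1 KO and 9282 and 8671 in the controls. The groups did not overlap, with the controls lower. The log2 fold change was 0.09 (95% interval 0.0067 to 0.18), 0.06 in pair 1 and 0.13 in pair 2, and it did not pass over all genes (adjusted p = 0.172 in limma). The other perilipins with a countable level lay close to it: Plin3, a broadly used coat protein, showed a log2 fold change of 0.03 (adjusted p = 0.698 in limma). Plin4, a coat protein of fat and muscle, had 4579 and 4408 normalized counts against 4310 and 4134, a log2 fold change of 0.09 (adjusted p = 0.216 in limma). Plin5, the form of oxidative tissue, had 1 to 4 reads and was not tested. Lipe, the hormone-sensitive lipase that acts at the droplet, showed a log2 fold change of −0.02 (adjusted p = 0.897 in limma), and Slc2a4, the insulin-responsive glucose transporter of fat and muscle, had 0.18 (adjusted p = 0.737 in limma) at 37.3 to 48.9 normalized counts.

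Cdo1 (ENSMUSG00000033022; chromosome 18, 46713193 to 46728395, minus strand) had 6357 and 6288 normalized counts in libraries labelled Prox1 KO and 5918 and 5472 in the controls. Both libraries labelled Prox1 KO were above both controls. Its level rose by 11.1% (95% interval 4.32 to 18.3), a log2 fold change of 0.15 (SE 0.043, adjusted p = 0.0318 in limma), with 0.10 in pair 1 and 0.20 in pair 2. The test by edgeR on recovered reads called it as well (adjusted p = 0.0368). The call was lost in limma without the replicate block (adjusted p = 0.408), after quantile normalization (adjusted p = 0.0681) and in DESeq2 with the block (adjusted p = 0.309), which called 0 of the 10 genes beside 3.52% of all genes it gave an adjusted p. Leaving out any single library, without the block, also ended the call (adjusted p from 0.44 to 0.924 in limma). It passed in 6 of 14 settings with a test.

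**Figure D3:**
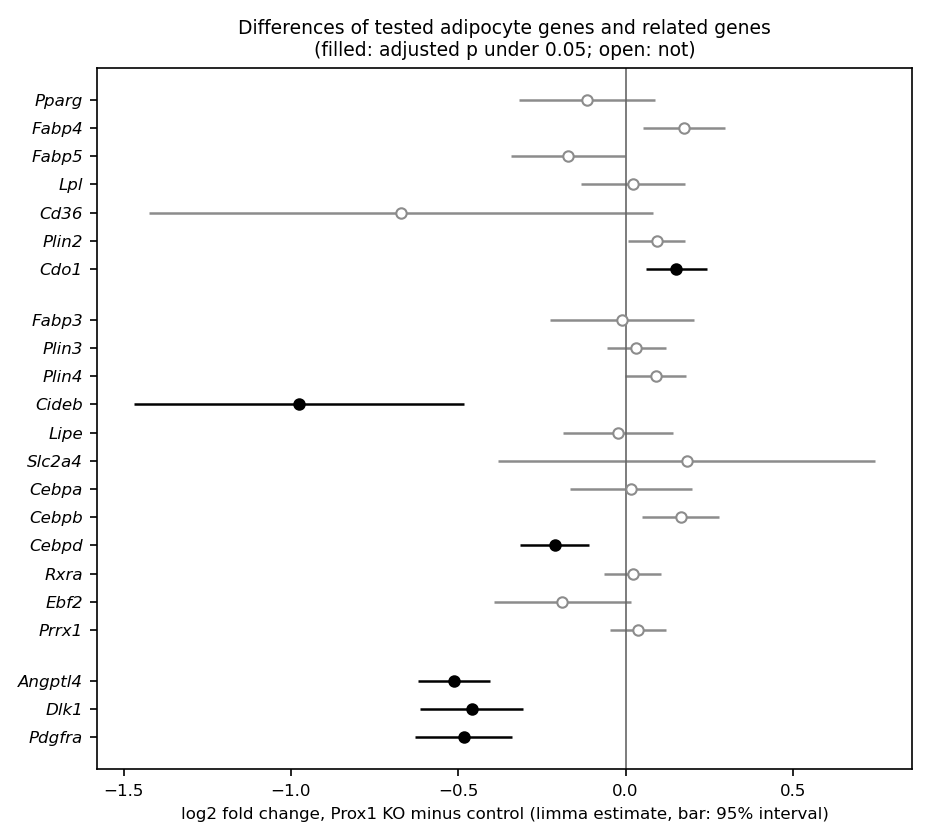
Log2 fold changes, libraries labelled Prox1 KO minus controls (x axis), with 95% intervals from limma, for the 7 tested adipocyte genes (top), their relatives and partners (middle) and 3 further genes of the fat cell lists (bottom). Filled points passed an adjusted p of 0.05. Among the 7, the filled point is Cdo1 at 0.15, while Cideb, Cebpd, Angptl4, Dlk1 and Pdgfra are filled on the negative side.

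Upstream sequence of the adipocyte genes was examined because PPARG and RXR bind a direct repeat of AGGTCA with 1 base between the copies, written AGGTCANAGGTCA. RefSeq windows of 300 bases around the start (build GRCm38.p6) were at hand for 6 of the 10 genes (Plin2, Cd36, Cidec, Pparg, Plin1 and Adipoq; 9 windows) and were searched on both strands. The 3 best matching sites are shown on the strand of the gene, 5′ to 3′, with the 13-base match in capitals; all 3 matches read on the opposite strand.
Cd36, chr5:17835939-17835967: tggttctcTGGCCTCTGACTTacttggat
Plin2, chr4:86670264-86670292: agctttcaGGACCCCTGACCTaagtcaga
Cidec, chr6:113435954-113435982: tgcttctgTGCCCTCTTGCCTagtgccat

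The sites of Cd36 and Plin2 matched 10 of the 12 fixed letters, a score reached by 3.86% of 32851 promoter windows, and began 63 and 225 bases before the transcript start of their window. The Cidec site matched 9 of 12, reached by 24.6% of windows, and the best matches of Pparg, Plin1 and Adipoq had 8 of 12, reached by 79.8%. These are matches of letters only, and the log2 fold changes were −0.67 for Cd36 and 0.09 for Plin2, neither called, with too few reads of Cidec to test.

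Genes of the same processes were then counted in lists. The share called over all genes tested was 11.4%, 5.09% higher and 6.29% lower. Among 23 transcription factors of fat cell formation, 22 were tested and 4 were called (18.2%), 2 higher and 2 lower, with a median log2 fold change of −0.05. Beside Cebpd, Ebf3, a relative of Ebf2, fell (log2 fold change −0.32, adjusted p = 0.0051 in limma). Ppard, the broadly expressed relative of Pparg, rose by 0.20 (adjusted p = 0.0077 in limma), from 3998 and 3646 to 4706 and 4088 normalized counts, and Klf4, an early factor of fat cell formation, rose by 0.16 (adjusted p = 0.0155 in limma). Of 28 known targets of PPARG, 7 of them among the 10 genes, 21 were tested and 4 were called (19.0%), 3 higher and 1 lower, with a median of 0.02. Lpin1, which makes diacylglycerol, rose by 0.15 (adjusted p = 0.0353 in limma).

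Among the called targets the largest difference was in Angptl4, a secreted inhibitor of LPL. It had 1613 and 1869 normalized counts in libraries labelled Prox1 KO and 2333 and 2628 in the controls. Both controls were higher, and the level fell by 0.51 on the log2 scale (SE 0.051, adjusted p = 9.17e-06 in limma), −0.53 in pair 1 and −0.49 in pair 2. DESeq2 with the block called it too, while limma without the block did not. The RNA of Lpl, which encodes the enzyme it inhibits, showed a log2 fold change of 0.02, as given above. LPL activity was not measured.

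In the list of fatty acid uptake and binding, 20 of 28 genes were tested and 3 were called (15.0%), 1 higher and 2 lower, with a median of −0.01. Besides Angptl4, Slc27a2, a fatty acid transporter and acyl-CoA synthetase of liver and kidney, fell from 26.6 and 34.1 to 8.31 and 10.8 normalized counts (log2 fold change −1.57, SE 0.38, adjusted p = 0.0138 in limma). Vldlr, a lipoprotein receptor, rose by 0.16 (adjusted p = 0.0374 in limma). Triglyceride synthesis had 14 genes tested and 2 called (14.3%), Lpin1 higher and Lpin2 lower (log2 fold change −0.28, adjusted p = 0.0041 in limma), with a median of 0.02.

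Of 20 genes of the droplet coat and of lipolysis, 13 were tested and 3 were called (23.1%), 2 higher and 1 lower, with a median of 0.04. Mgll, the monoacylglycerol lipase, rose from 839 and 865 to 1037 and 1151 normalized counts (log2 fold change 0.36, SE 0.067, adjusted p = 0.0024 in limma). Bscl2, which encodes seipin, a protein of droplet formation, rose by 0.20 (adjusted p = 0.0043 in limma). Cideb, the liver relative of Cidec, fell from 71.6 and 89.4 to 38.5 and 42.0 normalized counts (log2 fold change −0.98, SE 0.23, adjusted p = 0.012 in limma).

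Hormones secreted by fat were sparse or also known from other tissues. Of 14 adipokine genes, 10 were tested and 5 of those were called, 1 higher and 4 lower, with a median of −0.11. Agt, which encodes angiotensinogen and is a main product of liver, had 66.5 and 147 normalized counts against 183 and 168 (log2 fold change −0.82, adjusted p = 0.0277 in limma), with −1.44 in pair 1 and −0.20 in pair 2. Rarres2, which encodes chemerin, had −0.72 (adjusted p = 0.0446 in limma), with −1.26 in pair 1 and −0.18 in pair 2. Its groups overlapped, and edgeR did not call it (adjusted p = 0.0705). Rbp4, a retinol carrier of liver and fat, fell by 0.39 on the log2 scale (adjusted p = 0.000445 in limma), and Adm, which encodes a vasodilator peptide, fell by 0.16 (adjusted p = 0.0385 in limma). Both were named after their values were seen.

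Genes of brown and beige fat gave 9 tested of 17 and 2 called (22.2%), Pdk4 higher (log2 fold change 0.13, adjusted p = 0.0392 in limma) and Dio2 lower (−0.29, adjusted p = 0.0392 in limma). Pdk4 is a kinase that holds back pyruvate oxidation and Dio2 activates thyroid hormone. The median of that list was 0.02.

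Progenitors of fat cells are fibroblast-like cells of connective tissue. Of 16 preadipocyte and progenitor genes, all tested, 6 were lower and 0 higher (37.5% called, beside 11.4% of all genes tested), with a median log2 fold change of −0.10. Pdgfra, Pdgfrb, Thy1, Fbn1 and Dcn are also among the fibroblast markers counted below, of which 40.0% were called, with a median of −0.08. Pdgfra, the receptor that marks progenitors, fell from 9639 and 10480 to 5929 and 8708 normalized counts (log2 fold change −0.48, SE 0.068, adjusted p = 0.00028 in limma). Dpp4, a marker of early progenitors, had 22.9 and 69.4 against 56.9 and 117 (log2 fold change −1.01, adjusted p = 0.0118 in limma), lower within each pair although the groups overlapped. Of 15 genes listed as inhibitors of fat cell formation, all tested, 3 were called (20.0%). Dlk1 is in both of these lists. Dlk1, the preadipocyte factor that is switched off as fat cells mature, fell from 18480 and 13940 to 11400 and 11940 (log2 fold change −0.46, SE 0.072, adjusted p = 0.000641 in limma), with −0.70 in pair 1 and −0.22 in pair 2. Gata3, a factor that holds back Pparg, was higher (0.23, adjusted p = 0.0483 in limma), but edgeR did not call it (adjusted p = 0.0535). Sfrp2, an inhibitor of Wnt signals counted in the same list, was higher too (0.22, adjusted p = 0.0183 in limma). The list also holds Wnt10b and Wnt5a, so its members do not all act in the same direction on Wnt signals.

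The pathway around Cdo1 had the highest median of the fat-related lists, 0.16. Of 17 genes of cysteine and taurine metabolism, 13 were tested and 5 were called (38.5%), 4 higher, Cdo1 among them, and 1 lower. Gclc, which makes the first intermediate of glutathione from cysteine, rose from 10010 and 9979 to 12860 and 12500 normalized counts (log2 fold change 0.34, SE 0.039, adjusted p = 3.86e-05 in limma). Suox, the sulfite oxidase, rose by 0.35 (adjusted p = 0.000346 in limma), and Gss, the next enzyme of glutathione synthesis, named after its values were seen, rose by 0.17 (adjusted p = 0.0129 in limma). Csad, which works right after CDO1 on the way to taurine, went the other way, from 3353 and 3647 to 2856 and 3110 (log2 fold change −0.23, adjusted p = 0.0034 in limma). Gclc and Suox also passed in DESeq2 with the block.

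**Figure D4:**
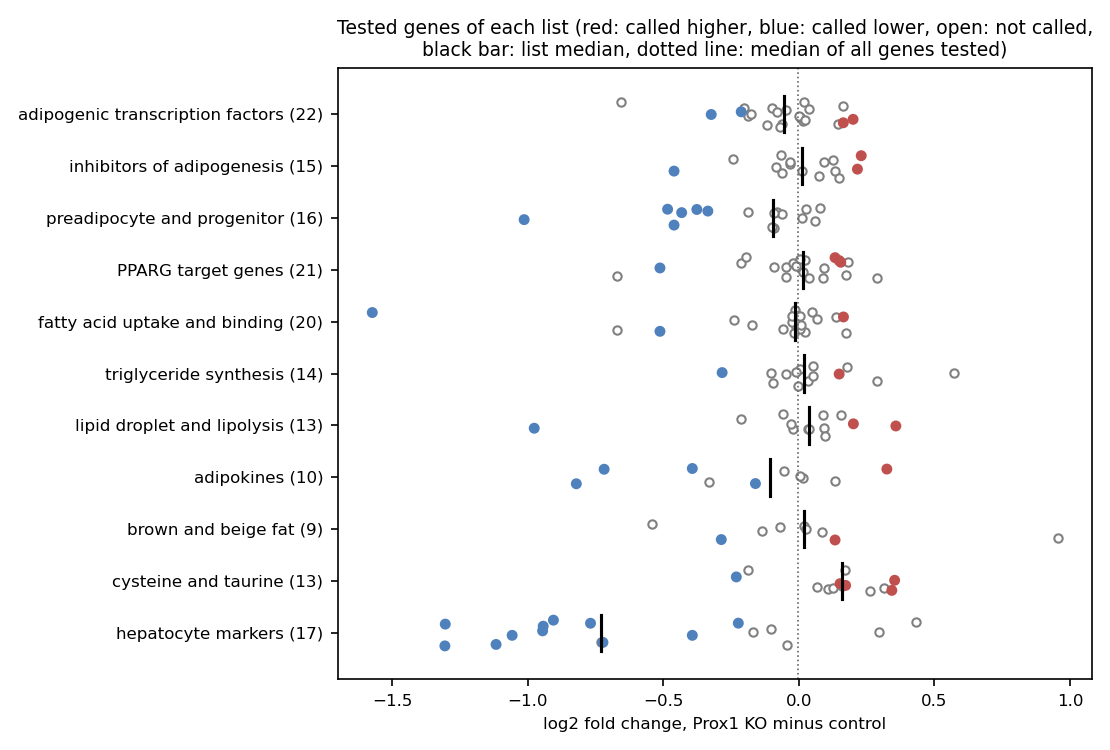
Log2 fold changes (x axis, libraries labelled Prox1 KO minus controls) of the tested genes of 10 fat-related lists and of the hepatocyte markers (rows, number tested in brackets, points spread vertically for sight), with red for called higher, blue for called lower and open for not called. Black bars are list medians, which lie between −0.11 and 0.16 for the fat-related lists and at −0.73 for the hepatocyte markers, and the dotted line is the median of all genes tested.

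The adipocyte marker list that the study drew from the Panglao database was also counted. It holds 105 genes, 5 of them among the 10 (Adipoq, Cdo1, Cidec, Fabp4 and Pparg), and 85 were tested. Of those, 6 were higher and 21 lower (31.8% called), with a median of −0.07. Over all genes tested 11.4% were called, 5.09% higher and 6.29% lower. The lower genes include Postn, also among the fibroblast markers counted below, and the collagen genes Col6a2 and Col5a3, so the list is not limited to fat cells. Steap4, a metalloreductase, had 515 and 1364 normalized counts in libraries labelled Prox1 KO and 1075 and 2158 in the controls, and it fell by 0.86 on the log2 scale (adjusted p = 4.98e-06 in limma), within each pair although the groups overlapped. Nqo1, a quinone reductase, rose by 0.34 (adjusted p = 0.0016 in limma), and Creb3l1, a membrane-bound transcription factor of secretory cells, rose by 0.32 (adjusted p = 0.000137 in limma). Across all of the genes named from the lists by a set rule, 29 in number, edgeR also called 27, all but Gata3 and Rarres2. DESeq2 with the block called 6 (Angptl4, Suox, Gclc, Steap4 and Creb3l1 among them) and limma without the block called 0.

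Markers of other cell types were counted as well. Of 20 hepatocyte markers, 17 were tested, 11 were lower and 0 higher (64.7% called, beside 11.4% of all genes tested, 5.09% higher and 6.29% lower), with a median of −0.73. Their summed level was 24390 and 26910 normalized counts in libraries labelled Prox1 KO and 35110 and 41340 in the controls. Cdo1 and Plin2, which hepatocytes also make, had log2 fold changes of 0.15 (called) and 0.09 (not called). What hepatocyte-like cells contributed to these values was not tested. Of 15 fibroblast markers, all tested, 5 were lower and 1 higher (40.0% called), and their summed level overlapped between groups, at 1874000 and 2152000 against 1906000 and 2236000.

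Most macrophage markers were low, but not all of them. Of 15 macrophage markers, 10 were under a mean of 10 normalized counts and 3 (Adgre1, Fcgr1 and Tyrobp) had 0 reads in all libraries. Their summed level was 541 and 618 normalized counts against 679 and 699. Of the 5 tested, 1 was called (20.0%, beside 11.4% of all genes), Cd14, which was lower, at 204 and 245 against 348 and 393. Cd68 had 206 and 232 normalized counts in libraries labelled Prox1 KO and 171 and 159 in the controls, without a call. Csf1r had 71.7 and 89.0 against 104 and 92.6, also without a call. Of 13 endothelial markers, 5 (Pecam1, Cdh5, Tie1, Cldn5 and Sox17) were under 10, with Cldn5 at 0 in all libraries, and of the 8 tested 3 were higher and 2 lower (62.5% called). Their summed level was 9544 and 8749 against 8208 and 6633, most of it from Flt1, at 8159 and 7442 against 7073 and 5498. Of 12 smooth and skeletal muscle markers, 7 were tested, 5 were higher and 0 lower (71.4% called), with a summed level of 94170 and 86450 against 74950 and 73270. The 5 were Acta2, Myh11, Cnn1, Tagln and Des. Acta1 and Mylpf were tested without a call, and Myod1, Myog, Actc1, Tnnt3 and Ckm were under a mean of 10. Most of the sum came from Acta2, at 54790 and 50360 against 43930 and 43360. The part of these cell types in the values of the adipocyte genes was not tested.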

How the data were processed

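Libraries were prepared with dUTP, which keeps strand, and sequenced in pairs of 100-base reads. The authors aligned them with STAR (mm10). Their deposited values are normalized counts per gene, a signal obtained from read counts and the DESeq2 size factor of each library. The counting tool and annotation release are not given in the sources used here. A deposited table of the authors' own comparison (fold changes and p-values) was not used. All positive values (100%) were whole multiples of the value of 1 read, within 0.001, so reads were recovered. Size factors were 0.939 to 1.09.

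Groups came from the sample labels. Genes whose mean reached 10 normalized counts (15809 of 55397) were tested on log2(normalized count + 1), which understates changes of low genes, with limma 3.58.1 in R 4.3.3 (variance trend, replicate number as a block, Benjamini-Hochberg, threshold 0.05). The block follows the methods of the study, which used the MEF line as a covariate. Taking same-numbered libraries as 1 line was checked by the correlation of their deviations from group means across genes, which are not independent replicates: 0.402 over the 15809 genes and 0.331 over 15250 autosomal genes. The replicate term was examined after the data were seen. Percent changes and their intervals are the limma estimates, and the SEs are limma's. edgeR 4.0.16 and DESeq2 1.42.0 were run on recovered reads, and the scripts were tested on simulated data. The other alternatives tried were pseudocounts of 0.1 and 10, all genes above 0, a mean of at least 50, quantile normalization and libraries left out. A count of 0 allows 3 reads, and the counting intervals (95%) of genes under the filter are exact; reads carry no molecular identifiers, so both cover counting error only.

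Named were the 10 genes, Prox1, set relatives and partners, hallmark fat cell genes and, in each list, the 2 largest called rises and falls with the same direction in both pairs. Rbp4, Adm, Gss, Postn, Col6a2, Col5a3, Cd14, Cd68, Csf1r, Flt1 and the muscle markers named fall outside this rule. Some results for listed genes are not reported here. The genes and lists were chosen with earlier results of these data known, and list counts are descriptions. Coordinates come from GENCODE vM21 on GRCm38 (55137 gene identifiers matched), and promoter sequences from RefSeq.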

Additional observations from a re-analysis of the deposited data

How the results depend on the processing

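With 2 libraries a group the calls rested on the replicate block. The comparison called 1798 genes, 1 of them an adipocyte gene. Without the block limma called 0 genes (1783 at an unadjusted p under 0.05) and 0 of the adipocyte genes, and no list of the report had a call. DESeq2 called 471 genes (212 higher, 259 lower) with the block and 159 (54 higher, 105 lower) without it, with 0 adipocyte genes in both. Quantile normalization left 0 adipocyte genes called. Leaving out single libraries, without the block, gave 0 to 118 genes (118 without the library labelled Prox1 KO of replicate 2, 0 without each other library) and 0 adipocyte genes. edgeR (1800 genes), pseudocounts of 0.1 (1794) and 10 (1678), all genes above 0 (2091) and a mean of at least 50 (1714) kept the count within 1.5 times. In these, Cdo1 was called with adjusted p from 0.0153 to 0.0368, and its fold change lay between 0.10 and 0.21 over all settings. DESeq2 with the block called 10 genes of the Panglao list, 2 adipokines, 2 cysteine genes, 1 uptake gene and 1 PPARG target, and 0 in the other fat-related lists.

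Signs turned in these cases. Quantile normalization gave 0.0375 for Fabp3 and 0.0141 for Lipe. With each pair alone, Lpl ranged from −0.0742 to 0.1178, Fabp3 from −0.0673 to 0.0468, Plin3 from −0.0006 to 0.0657, Lipe from −0.069 to 0.0227 and Slc2a4 from −0.0177 to 0.3826. Without single libraries and without the block, the turned values were −0.0719 and −0.0041 for Fabp4, −0.0642 for Lpl, −0.1027 and −0.1005 for Cebpa, 0.0114 and 0.0685 for Fabp3, −0.0383 and −0.0052 for Plin3, 0.0535 and 0.0077 for Lipe, 0.0758 for Ebf2 and 0.0854 for Adm. The cause was not tested. Few reads limited Cd36, Cidec, Adipoq and Plin1 among the 10 genes.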
